A study of Mus musculus with 19 samples.

Results

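The 10 genes described here encode enzymes that build triglyceride: the glycerol-3-phosphate acyltransferase Gpam, the lysophosphatidate acyltransferases Agpat1, Agpat2 and Agpat3, the lipins Lpin1 and Lpin2, the monoacylglycerol acyltransferases Mogat1 and Mogat2, and the diacylglycerol acyltransferases Dgat1 and Dgat2. They were taken by gene symbol from a table of 54176 rows, and all 10 were found. All 10 also passed the filter on low counts, which left 17028 genes for testing. The samples were gastrocnemius, a calf muscle, of FVB mice, frozen either 24 hours into refeeding (REL) or while a reduced body weight was being maintained (WLM). The mice were either mCK-hLPL transgenics, in which the muscle creatine kinase promoter drives human lipoprotein lipase, or wild type (WT). RNA-seq libraries fell into 4 groups, with 5 of mCK-hLPL REL, 4 of WT REL, 5 of mCK-hLPL WLM and 5 of WT WLM. Every group had lost weight before sampling, so no group shows muscle of mice that were never food restricted. The count table has no row for the human transgene, so the transgene itself gave no check of the genotype labels.

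Triglyceride is assembled on a glycerol backbone. In the main route Gpam adds a first fatty acyl chain to glycerol-3-phosphate, an AGPAT enzyme adds a second to give phosphatidate, a lipin removes the phosphate to give diacylglycerol, and Dgat1 or Dgat2 adds the last chain. The monoacylglycerol acyltransferases reach diacylglycerol by a separate route, from monoacylglycerol, which is best known from the enterocytes of the small intestine. In mice and humans, loss of AGPAT2 leaves the body almost without fat tissue, and Lpin1 is the main lipin of skeletal muscle. Insulin and feeding are known to raise several of these genes in liver and fat.

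Total counts per library ran from 35595030 to 51073355, and the members ranged from Mogat2, with at most 88 counts in a library, to Lpin1, with 35810 to 42774 counts summed over each group. The 10 muscle fibre markers summed to between 115000 and 179000 CPM, counts scaled to a common library total, in every library. Of 7 intestinal markers, Lct and Alpi were at 0 in 18 of 19 libraries each, Cdx1 in 17 and Fabp2 in 14, while Apoa4 was at 0 in 7, Fabp1 in 3 and Vil1 in 1, with up to 185 counts of Fabp1 in a library. In mCK-hLPL WLM 3 and WT WLM 1 and 5, 8 of the 9 lymph node markers summed to 33.2, 39.3 and 42.6 CPM, against 0.215 to 3.15 CPM elsewhere. The ninth, the immunoglobulin gene Ighm, was left out of that sum after its values were seen. It averaged 347 CPM in mCK-hLPL REL and 216 in mCK-hLPL WLM, and 362 CPM in WT REL and 265 in WT WLM. With Ighm, those 3 libraries had 259, 300 and 408 CPM and did not stand apart from the others, at 151 to 480 CPM. In mCK-hLPL REL 4 and 5 and WT REL B, 8 liver markers summed to 79.9, 168 and 165 CPM, against 2.75 to 35.3 CPM elsewhere. The libraries called WT REL A and B are the ones whose column numbers match no sample title. Nothing states that each library came from a separate mouse, so each p-value reflects only how far these samples spread, which may be technical. Tissue was sampled whole, and fewer cells of a type cannot be told apart from less RNA per cell.

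On refeeding, Agpat2, Mogat2, Mogat1 and Dgat2 rose in mCK-hLPL muscle, and Agpat2 and Mogat2 rose in WT muscle, while Gpam, Agpat1, Agpat3, Lpin1, Lpin2 and Dgat1 did not pass the test in either genotype. No member passed the test in the lower direction, and none passed between mCK-hLPL and WT muscle in either phase.

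Promoter sequence is shown for 3 members, Agpat2 and Mogat1, which rose on refeeding, and Agpat1, which catalyses the same step as Agpat2 and did not pass the test. Each is a RefSeq window of 250 bases before to 50 bases after the annotated start, on build GRCm38.p6. Capitals mark matches, on either strand, to the E-box CACGTG, the sterol element TCACNCCAC, the CCAAT box, the GC box GGGCGG or the nuclear receptor element AGGTCA.
Agpat2, chr2:26604368-26604667, strand -: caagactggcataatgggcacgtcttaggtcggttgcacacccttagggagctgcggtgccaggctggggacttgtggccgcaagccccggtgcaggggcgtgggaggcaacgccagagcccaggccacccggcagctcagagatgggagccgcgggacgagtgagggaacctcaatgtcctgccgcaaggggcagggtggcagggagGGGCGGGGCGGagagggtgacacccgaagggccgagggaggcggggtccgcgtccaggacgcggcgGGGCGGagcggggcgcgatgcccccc
Agpat1, first start, chr17:34605611-34605910, strand +: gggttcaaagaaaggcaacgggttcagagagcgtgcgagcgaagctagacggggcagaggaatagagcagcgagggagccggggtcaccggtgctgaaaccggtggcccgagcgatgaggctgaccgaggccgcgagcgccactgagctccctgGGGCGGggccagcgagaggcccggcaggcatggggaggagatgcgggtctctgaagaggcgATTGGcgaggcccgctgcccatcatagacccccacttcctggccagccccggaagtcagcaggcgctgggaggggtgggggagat
Mogat1, chr1:78510810-78511109, strand +: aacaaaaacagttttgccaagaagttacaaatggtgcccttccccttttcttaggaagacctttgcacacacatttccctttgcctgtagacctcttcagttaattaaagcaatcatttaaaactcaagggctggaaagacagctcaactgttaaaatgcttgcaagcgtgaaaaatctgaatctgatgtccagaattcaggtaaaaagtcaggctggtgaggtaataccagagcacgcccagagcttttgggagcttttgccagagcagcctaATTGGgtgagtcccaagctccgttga

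The Agpat2 window was 72% G or C and held 3 GC boxes, a pair of which overlap, and no other searched motif. The first Agpat1 window was 68% G or C, with 1 GC box and 1 CCAAT box, read as ATTGG on the strand shown. The Mogat1 window was 43.7% G or C and held 1 CCAAT box, also read as ATTGG. RefSeq windows were at hand for 7 of the 10 members, 11 windows in all, and not for Mogat2, Dgat1 and Dgat2. Of the 11, 6 held a GC box, 4 a CCAAT box, 3 a nuclear receptor element, 1 an E-box (Lpin2) and 0 the sterol element. Among 32851 mouse promoters of the same length the shares were 35.7% for the GC box, 37.4% for the CCAAT box, 16.3% for the nuclear receptor element, 7.15% for the E-box and 1.24% for the sterol element. These matches describe letters in the windows and were not tested for binding.

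Agpat2 makes phosphatidate in the endoplasmic reticulum and lies at chr2:26593057-26604417 on the minus strand. It had 19.3, 64.4, 56, 29 and 49 CPM in mCK-hLPL REL 1 to 5, against 14.5, 7.9, 12.7, 9.31 and 7.52 CPM in mCK-hLPL WLM 1 to 5. In WT muscle it had 30.1, 37.8, 32.7 and 60.7 CPM in REL 1, 2, A and B, against 15.2, 8.89, 10.1, 10.3 and 15.1 CPM in WLM 1 to 5. Every refed library stood above every WLM library of its genotype, and the lowest refed library, mCK-hLPL REL 1, was the closest to the WLM range. The log2 difference was 2.07 ± 0.3 (SE) in mCK-hLPL muscle, with an adjusted p of 0.000703 by edgeR's quasi-likelihood test with Benjamini-Hochberg adjustment over all genes. In WT muscle it was 1.76 ± 0.31 with an adjusted p of 0.00318 by the same test, which gives all further adjusted p-values here. Group means were 43.5 ± 18.8 CPM in mCK-hLPL REL, 40.3 ± 14 in WT REL, 10.4 ± 3.1 in mCK-hLPL WLM and 11.9 ± 3.01 in WT WLM (SD).

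Mogat2, a monoacylglycerol acyltransferase at chr7:99219084-99238619 on the minus strand, had the largest log2 difference of the 10 members and the lowest level. It had 13, 88, 24, 23 and 38 counts in mCK-hLPL REL 1 to 5, against 4, 1, 0, 2 and 0 in mCK-hLPL WLM 1 to 5. WT muscle gave 10, 22, 27 and 46 counts in REL 1, 2, A and B, against 2, 1, 1, 0 and 4 in WLM 1 to 5. The groups did not overlap in either genotype, but the WLM side was close to no signal. Only refed libraries reached the filter's minimum count of 10, so Mogat2 entered the test through the groups where it was high. Scaled for depth, the refed libraries had 0.327 to 1.55 CPM in mCK-hLPL and 0.206 to 0.86 CPM in WT muscle, and the WLM libraries had 0 to 0.0886 CPM in mCK-hLPL and 0 to 0.106 CPM in WT muscle. Summed over libraries, 186 counts in mCK-hLPL REL against 7 in mCK-hLPL WLM gave a depth-scaled ratio of 23, with an exact 95% interval of 10.9 to 57.9. For WT, 105 counts in REL against 8 in WLM gave a ratio of 14.6, with an interval of 7.13 to 34.7. Both intervals cover counting error only and leave out the spread between libraries. The fitted log2 difference was 4.35 ± 0.7 in mCK-hLPL muscle (adjusted p = 0.00153) and 3.76 ± 0.71 in WT muscle (adjusted p = 0.0064).

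Mogat1, which catalyses the same reaction as Mogat2 and lies at chr1:78510991-78538173, had 0.302, 0.862, 0.472, 0.382 and 0.816 CPM in mCK-hLPL REL 1 to 5, against 0.31, 0.232, 0.274, 0.268 and 0.169 CPM in mCK-hLPL WLM 1 to 5. It had 0.515, 0.383, 0.579 and 0.505 CPM in WT REL 1, 2, A and B, against 0.392, 0.122, 0.232, 0.194 and 0.292 CPM in WT WLM 1 to 5. The groups touched in both genotypes, through mCK-hLPL REL 1 and mCK-hLPL WLM 1 and through WT REL 2 and WT WLM 1. Mogat1 rose by a log2 difference of 1.18 ± 0.32 in mCK-hLPL muscle (adjusted p = 0.0311), while the WT difference of 1 ± 0.34 missed the threshold (adjusted p = 0.0994). The mCK-hLPL call was lost when mCK-hLPL REL 2 or 5 or mCK-hLPL WLM 2, 3 or 5 was left out, with adjusted p up to 0.0967. Without the 3 lymph node libraries the adjusted p was 0.0548, and without the 3 liver libraries it was 0.0647.

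Dgat2 and Dgat1 each add the final acyl chain and are unrelated in sequence family. Dgat2, at chr7:99153658-99182719, had 64.8, 165, 119, 70 and 85.1 CPM in mCK-hLPL REL 1 to 5, against 77.4, 45.1, 63.1, 57.1 and 44.1 CPM in mCK-hLPL WLM 1 to 5. In WT muscle it had 63, 90.1, 106 and 135 CPM in REL 1, 2, A and B, against 84.6, 46.5, 62.2, 60.5 and 74.8 CPM in WLM 1 to 5. The groups overlapped in both genotypes, with mCK-hLPL REL 1 and 4 and WT REL 1 inside the WLM range. Dgat2 rose by 0.81 ± 0.25 on the log2 scale in mCK-hLPL muscle at an adjusted p of 0.0497, and the WT difference of 0.58 ± 0.26 did not pass (adjusted p = 0.21). That mCK-hLPL call stood at the threshold: it was lost when any 1 of 12 libraries was left out, with adjusted p up to 0.161 and a log2 difference of 0.57 without mCK-hLPL REL 2. It was also lost without the 3 lymph node libraries (adjusted p = 0.0879), and kept without the 3 liver libraries (adjusted p = 0.0265).

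Dgat1, at chr15:76502015-76511953, had 11.6, 18, 16.1, 13.4 and 17.4 CPM in mCK-hLPL REL 1 to 5, against 13.5, 9.29, 12.6, 12.7 and 8.66 CPM in mCK-hLPL WLM 1 to 5. It had 13.3, 12.5, 14.2 and 17 CPM in WT REL 1, 2, A and B, against 13.8, 10.7, 12.1, 11.3 and 14.3 CPM in WT WLM 1 to 5. Refed and WLM libraries overlapped in both genotypes. The log2 difference was 0.43 ± 0.14 in mCK-hLPL muscle (adjusted p = 0.0603) and 0.2 ± 0.15 in WT muscle (adjusted p = 0.487), so neither passed. Without mCK-hLPL WLM 1, mCK-hLPL REL 1 or mCK-hLPL REL 4 the mCK-hLPL difference did pass, with adjusted p between 0.0238 and 0.0466, and it passed with DESeq2 (adjusted p = 0.031).

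**Figure D1:**
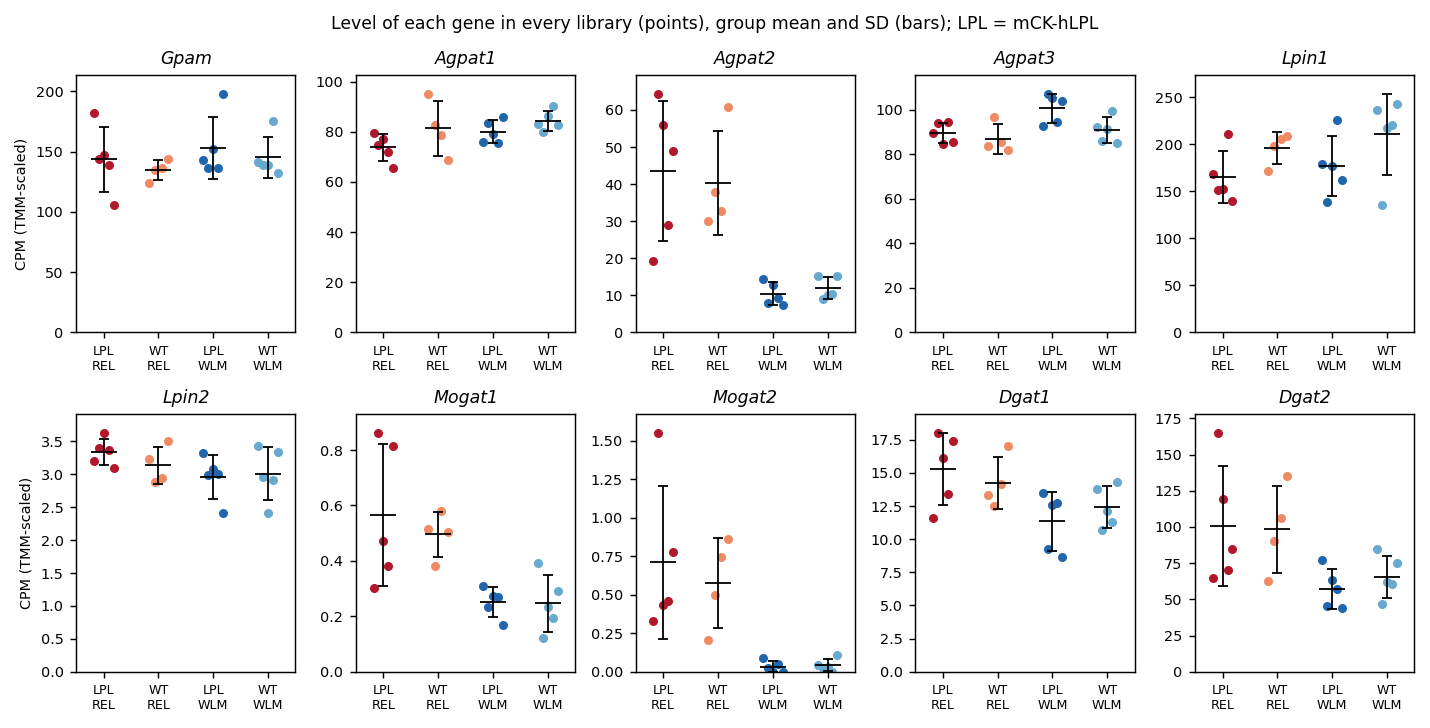
TMM-scaled CPM of each of the 10 genes on a linear axis from 0, with 1 point per library, the group mean as a dash and the SD as a bar. LPL stands for mCK-hLPL. Agpat2 and Mogat2 have every refed library above every WLM library, while refed and WLM libraries of Mogat1, Dgat1, Dgat2, Gpam, Agpat1, Agpat3, Lpin1 and Lpin2 overlap.

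In all, 4 of the 10 members rose in mCK-hLPL muscle and 2 of 10 in WT muscle. Both counts, like the counts without overlap and averaged over genotypes below, include Mogat2, which passed the low-count filter only through its refed libraries. Over all 17028 genes, 4.11% were called higher on refeeding in mCK-hLPL muscle and 2.63% in WT muscle. In either direction, 8.15% were called in mCK-hLPL muscle and 4.88% in WT muscle. Members with no overlap between REL and WLM libraries numbered 2 in each genotype, all higher in REL, against 3.21% of all genes in mCK-hLPL and 5.64% in WT muscle. The median log2 difference of the 10 members was 0.31 in mCK-hLPL and 0.13 in WT muscle, and over all genes tested it was 0.01 in mCK-hLPL and 0 in WT muscle. Averaged over both genotypes, 5 members rose on refeeding and 0 fell, where 10.7% of all genes were called higher and 20.7% in either direction. Those were Mogat2 at 4.06 ± 0.5 (adjusted p = 3.42e-05), Agpat2 at 1.91 ± 0.21 (1.22e-05), Mogat1 at 1.09 ± 0.24 (0.00328), Dgat2 at 0.7 ± 0.18 (0.0101) and Dgat1 at 0.32 ± 0.1 (0.0333). Of these, Dgat1 lost its call when any 1 of 8 libraries was left out, with adjusted p up to 0.0828, and also without the 3 liver libraries, at 0.115.

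The enzyme that opens the main route did not pass. Gpam, at chr19:55067268-55127238, had 182, 144, 147, 139 and 106 CPM in mCK-hLPL REL 1 to 5, against 143, 136, 152, 136 and 198 CPM in mCK-hLPL WLM 1 to 5. It had 124, 135, 136 and 144 CPM in WT REL 1, 2, A and B, against 141, 139, 139, 175 and 132 CPM in WT WLM 1 to 5. The groups overlapped almost wholly, and the log2 differences were -0.09 in mCK-hLPL and -0.11 in WT muscle.

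The other AGPAT members did not pass the test. Agpat1 averaged 73.8 ± 5.38 CPM in mCK-hLPL REL and 79.9 ± 4.55 in mCK-hLPL WLM, and 81.3 ± 10.9 CPM in WT REL and 84.4 ± 4 in WT WLM (SD). Agpat3, whose product also feeds phospholipids, averaged 89.5 ± 4.66 CPM in mCK-hLPL REL and 101 ± 6.46 in mCK-hLPL WLM, and 86.9 ± 6.61 CPM in WT REL and 90.8 ± 5.88 in WT WLM. The log2 difference on refeeding was -0.12 for Agpat1 and -0.17 ± 0.07 for Agpat3 in mCK-hLPL muscle (adjusted p = 0.126 for Agpat3), and -0.05 for Agpat1 and -0.06 for Agpat3 in WT muscle. Neither lipin passed in this fit. Lpin1 had 168, 152, 153, 211 and 140 CPM in mCK-hLPL REL 1 to 5, against 179, 139, 177, 226 and 162 CPM in mCK-hLPL WLM 1 to 5. It had 172, 198, 206 and 209 CPM in WT REL 1, 2, A and B, against 237, 136, 217, 221 and 243 CPM in WT WLM 1 to 5. Refed and WLM libraries overlapped in both genotypes, and the log2 difference was -0.1 in each. Lpin2 ran from 2.41 to 3.63 CPM over all 19 libraries, with log2 differences of 0.18 in mCK-hLPL and 0.06 in WT muscle. The signs of the Gpam, Agpat1, Agpat3 and Lpin1 differences turned positive, up to 0.13, when libraries were scaled by their totals alone, a scaling that moved the median of all genes by 0.22 in mCK-hLPL and 0.14 in WT muscle. Under that scaling Lpin2 passed in mCK-hLPL muscle, at 0.4 (adjusted p = 0.0465).

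**Figure D2:**
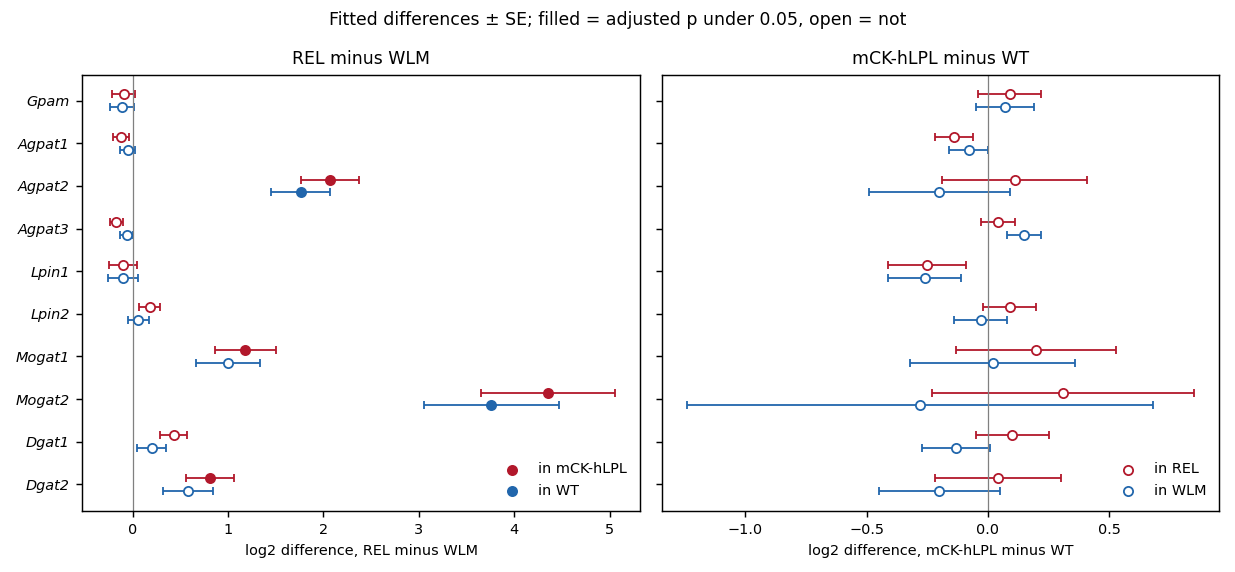
Fitted log2 differences with their SE for the 10 genes, REL minus WLM on the left and mCK-hLPL minus WT on the right. Filled points passed an adjusted p of 0.05: Agpat2 and Mogat2 in both genotypes, Mogat1 and Dgat2 in mCK-hLPL muscle, and none on the right.

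Muscle overexpression of lipoprotein lipase, the enzyme that frees fatty acids from circulating triglyceride, was the other factor of the design. Against WT, mCK-hLPL muscle had 0 members called in REL, where 0.0117% of all genes were called, and 0 in WLM, where 0.0294% were. DESeq2 and limma voom also called 0 members in both phases, where DESeq2 called 28 of all genes in REL and 22 in WLM. At an unadjusted p under 0.05 there were 0 members and 743 of all 17028 genes in REL. In WLM there were 828 of all genes and 1 member. That 1 was Agpat3, with 92.8, 107, 105, 94.4 and 104 CPM in mCK-hLPL WLM 1 to 5, against 92.4, 85.9, 91.5, 99.5 and 84.9 CPM in WT WLM 1 to 5. Its log2 difference was 0.15 ± 0.07, with an adjusted p of 0.942. Lpin1 had the largest genotype difference among the 7 most abundant members, -0.25 ± 0.16 in REL (adjusted p = 1) and -0.26 ± 0.15 in WLM (adjusted p = 0.942). Averaged over phases it was -0.25 ± 0.11, with an unadjusted p of 0.03 and an adjusted p of 0.688, where 0 members and 0.211% of all genes were called.

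Whether refeeding acted differently in the genotypes was tested as the interaction of genotype and phase. The count was 0 of 10 members and 0% of all genes by edgeR, with 0 members and 403 genes at an unadjusted p under 0.05, and 0 members and 2 genes called by DESeq2. The refeeding difference in mCK-hLPL muscle exceeded that in WT muscle by 0.59 ± 1.12 on the log2 scale for Mogat2, 0.31 ± 0.42 for Agpat2, 0.24 ± 0.2 for Dgat1, 0.23 ± 0.36 for Dgat2 and 0.18 ± 0.47 for Mogat1, with an adjusted p of 1 for each. So Mogat1 and Dgat2 passing in mCK-hLPL and not in WT muscle does not show a difference between the genotypes.

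Levels of different genes were compared per kilobase of merged exons. Over the 19 libraries the order was Agpat1 at 26.6 CPM per kb, Dgat2 at 25.8, Gpam at 21.7, Lpin1 at 19.3, Agpat2 at 12.1, Agpat3 at 11.8, Dgat1 at 4.35, Lpin2 at 0.254, Mogat1 at 0.247 and Mogat2 at 0.178. Dgat2 ran from 14.3 to 53.5 CPM per kb and Agpat2 from 3.53 to 30.2, so their places depended on the library, and the ranges of Agpat1, Dgat2, Gpam and Lpin1 overlapped. The lowest Dgat1 value, 2.83 CPM per kb, stood above the highest value of Lpin2, Mogat1 or Mogat2, 0.844.

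Within its enzyme step, Agpat2 made up 33.3% of length-scaled AGPAT transcript in mCK-hLPL REL (18.3% to 43.1% over libraries) and 10.4% in mCK-hLPL WLM (7.38% to 14.6%). In WT muscle its share was 31.2% in REL (23.7% to 44%) and 11.7% in WLM (9.43% to 14.9%). The Agpat1 share was 42.2% in mCK-hLPL REL and 56.8% in mCK-hLPL WLM, and 45.5% in WT REL and 58.9% in WT WLM, at nearly the same Agpat1 level. Mogat2 made up 49.5% of Mogat transcript in mCK-hLPL REL and 8.3% in mCK-hLPL WLM, and 47.3% in WT REL and 11.4% in WT WLM. In the other steps the makeup was similar in the 4 groups, with Dgat2 at 83.2% to 86.7% of Dgat transcript, Lpin1 at 93.3% to 96.1% of lipin transcript and Gpam at 72.2% to 75.9% of glycerol-3-phosphate acyltransferase transcript in the group means.

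**Figure D3:**
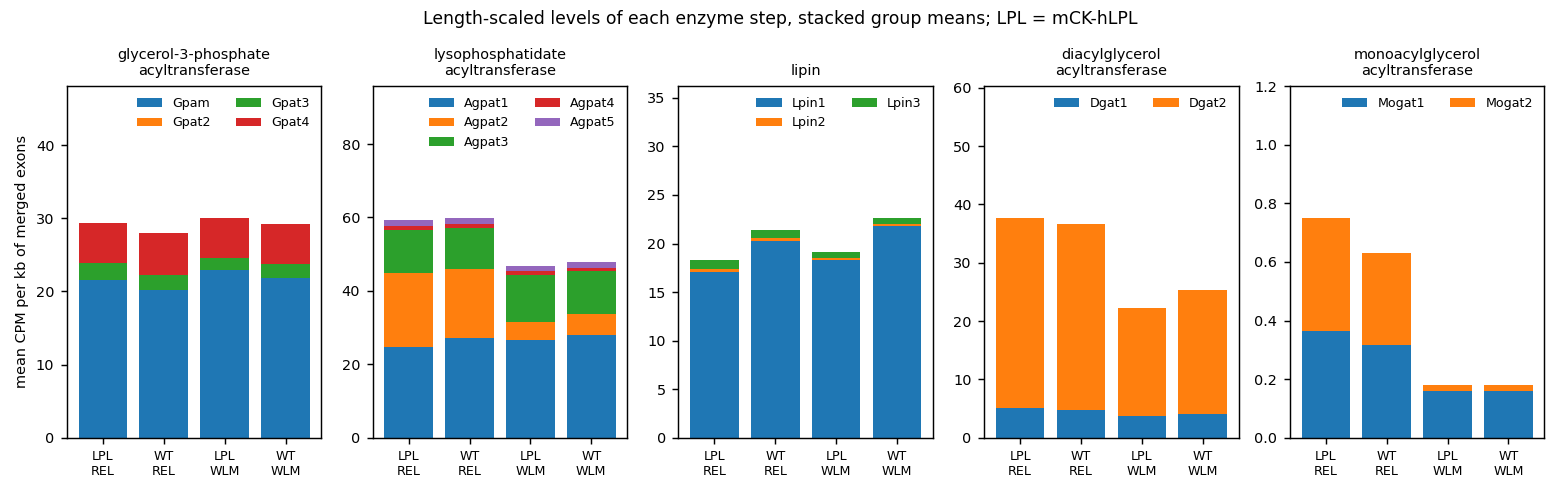
Group mean CPM per kb of merged exons, stacked by gene within each enzyme step, with a separate linear axis from 0 for each step. LPL stands for mCK-hLPL. The Agpat2 and Mogat2 segments are taller in both REL groups than in both WLM groups, and the Gpam segment is similar in all 4.

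Of 16 other genes of glycerolipid synthesis, 15 were tested, and 2 rose and 0 fell on refeeding in mCK-hLPL muscle, while 1 rose and 0 fell in WT muscle. Over all genes, 4.11% were called higher in mCK-hLPL and 2.63% in WT muscle. Their median log2 difference was 0.18 in mCK-hLPL and 0.09 in WT muscle. Averaged over genotypes, 5 of the 15 rose and 1 fell, with a median of 0.08, where 20.7% of all genes were called in either direction. Bscl2, which encodes seipin of the lipid droplet neck, averaged 23.7 ± 4.05 CPM in mCK-hLPL REL and 16.4 ± 1.31 in mCK-hLPL WLM, a log2 difference of 0.53 ± 0.11 (adjusted p = 0.00769). In WT muscle Bscl2 averaged 23 ± 3.03 CPM in REL and 17.2 ± 1.82 in WLM, a difference of 0.42 ± 0.12 (adjusted p = 0.0421). Lpin3, the least studied lipin, averaged 3.43 ± 0.63 CPM in mCK-hLPL REL and 2 ± 0.376 in mCK-hLPL WLM, a difference of 0.78 ± 0.15 (adjusted p = 0.00543), while its WT difference of 0.44 ± 0.16 did not pass (adjusted p = 0.123).

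Of 14 genes of the phospholipid branch, which uses the same phosphatidate and diacylglycerol, 13 were tested. In mCK-hLPL muscle 0 rose and 1 fell, where 8.15% of all genes were called in either direction. In WT muscle 0 passed, where 4.88% of all genes were called. There 3 had an unadjusted p under 0.05, as did 3513 of all 17028 genes. Averaged over genotypes 2 rose and 2 fell, where 20.7% of all genes were called in either direction. Pcyt1a, the rate-setting enzyme of phosphatidylcholine synthesis, fell by 0.3 on the log2 scale, to 90.5 ± 9.18 CPM in mCK-hLPL REL, against 111 ± 10.6 in mCK-hLPL WLM (adjusted p = 0.0404). Neither list had a member that passed between genotypes. As points of reference for the refeeding response, the fatty acid synthase gene Fasn had a log2 difference of 2.5 in mCK-hLPL (adjusted p = 0.00741) and 1.53 in WT muscle (adjusted p = 0.0952). Angptl8, a feeding-induced inhibitor of lipoprotein lipase, rose by 3.98 in mCK-hLPL (adjusted p = 0.00153) and 4.3 in WT muscle (adjusted p = 0.00164). Its counts summed to 317 in mCK-hLPL REL and 16 in mCK-hLPL WLM, and to 259 in WT REL and 13 in WT WLM. So Angptl8, like Mogat2, passed the low-count filter only through its refed libraries. The lipogenic regulator Srebf1 had differences of -0.05 in mCK-hLPL and 0.34 in WT muscle and passed in neither, and Mlxipl, which encodes the carbohydrate-responsive factor ChREBP, had 0.46 (adjusted p = 0.0376) in mCK-hLPL and 0.36 (adjusted p = 0.146) in WT muscle.

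Fat cells lie between muscle fibres and express several of these genes, so each member was set beside a sum of 10 fat cell markers. The markers were Adipoq, Retn, Cfd, Plin1, Lep, Cidec, Cidea, Fabp4, Slc7a10 and Aqp7. Fabp4 and Cfd made up most of the sum. Fabp4 averaged 394 CPM in mCK-hLPL REL and 379 in WT WLM, and Cfd 149 and 174, against 44.6 and 48 for Adipoq. The sum ran from 486 to 992 CPM in mCK-hLPL REL and from 434 to 925 in mCK-hLPL WLM, and from 421 to 803 in WT REL and from 472 to 974 in WT WLM. None of the 10 markers was at 0 in any library. On refeeding 0 of the 10 markers were called in either genotype. An unadjusted p under 0.05 was found for 2 markers and 4162 of all 17028 genes in mCK-hLPL muscle. In WT muscle it was found for 1 marker and 3513 of all genes. The median log2 difference of the 10 markers was 0.15 in mCK-hLPL and -0.19 in WT muscle. Averaged over genotypes 1 marker was called higher and 0 lower, where 10.7% of all genes were called higher. In that contrast 3 markers had an unadjusted p under 0.05, as did 5769 of all genes, and the median log2 difference of the 10 markers was -0.02. After group means were removed, the log2 level followed the log2 marker sum across the 19 libraries with a Pearson r of 0.92 for Dgat2, 0.9 for Dgat1, 0.87 for Agpat2, 0.79 for Mogat2 and 0.78 for Mogat1. For Lpin2 r was 0.5, for Lpin1 0.39, for Agpat3 -0.3, for Gpam -0.34 and for Agpat1 -0.56. These libraries share depth scaling, so the correlations are descriptions.

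Set against the fat cell markers of the same library, refed and WLM libraries of Dgat2, Agpat2, Mogat1 and Mogat2 did not overlap in either genotype, while those of Dgat1, Gpam, Agpat1, Agpat3, Lpin1 and Lpin2 overlapped in both. The share of all genes without overlap on this scale was not taken, so whether this is unusual is not known. For Dgat2 in mCK-hLPL muscle the gap was narrow. Dgat2 had 10.4 to 16.6 CPM per 100 CPM of fat cell markers in mCK-hLPL REL and 8.14 to 10.2 in mCK-hLPL WLM, and 14.5 to 16.8 in WT REL and 7.67 to 9.86 in WT WLM. Agpat2 had 3.97 to 6.89 in mCK-hLPL REL and 1.33 to 1.9 in mCK-hLPL WLM, and 4.49 to 7.56 in WT REL and 1.52 to 1.89 in WT WLM. Dgat1 had 1.82 to 2.39 in mCK-hLPL REL and 1.46 to 1.99 in mCK-hLPL WLM, and 1.95 to 3.17 in WT REL and 1.46 to 2.28 in WT WLM. A fat cell score was also taken as the mean log2 CPM of the 10 markers, which weighs them equally, unlike their sum. With the fat cell score as a covariate in the fit, Dgat2 rose by 0.58 ± 0.1 in mCK-hLPL (adjusted p = 0.00158) and by 0.61 ± 0.1 in WT muscle (adjusted p = 0.00159). Mogat1 then rose by 0.98 ± 0.27 in mCK-hLPL (adjusted p = 0.0324) and 1.12 ± 0.28 in WT muscle (adjusted p = 0.0237), and Dgat1 passed in mCK-hLPL at 0.35 ± 0.09 (adjusted p = 0.0255). Agpat2 stood at 1.83 in both genotypes, and Mogat2 at 3.99 in mCK-hLPL and 3.93 in WT muscle. In that fit 7.18% of all genes were called on refeeding in mCK-hLPL and 6.08% in WT muscle.

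**Figure D4:**
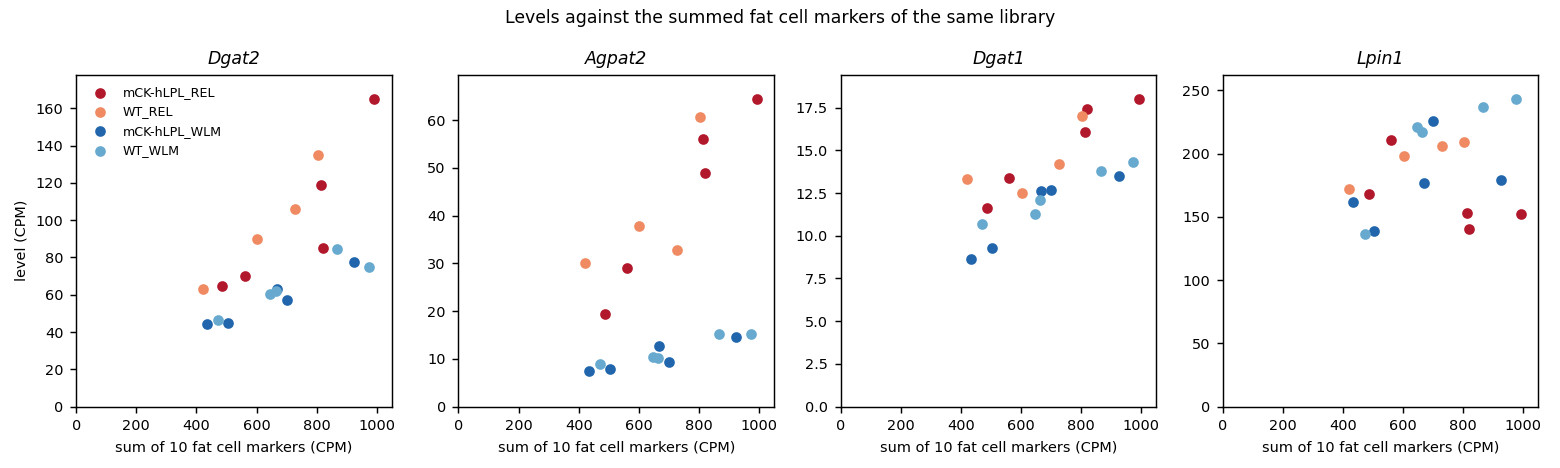
CPM of Dgat2, Agpat2, Dgat1 and Lpin1 against the summed CPM of 10 fat cell markers in the same library, linear axes from 0, 1 point per library coloured by group. Dgat2 and Agpat2 climb with the marker sum, and their refed points lie higher relative to that sum than their WLM points, while Lpin1 shows no such order.

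Other tissue signals moved with the phases too. The 3 lymph node libraries are all WLM and the 3 liver libraries all REL. Those 3 liver libraries also had the highest sums of the 7 intestinal markers. The sums were 3.37 and 5.08 CPM in mCK-hLPL REL 4 and 5 and 4.75 CPM in WT REL B, against 0.0772 to 1.41 CPM elsewhere. They came mostly from Fabp1, at up to 3.41 CPM in mCK-hLPL REL and 3.46 in WT REL, and from Apoa4, at up to 1.57 and 0.879 CPM. Lct, Alpi and Cdx1 had at most 4 counts in any library. Fabp2 had at most 11 counts, reaching 0.206 CPM in WT REL and 0.0612 in mCK-hLPL REL, against 0.0461 in WT WLM and 0 in mCK-hLPL WLM. In WT REL B, 1 of the 7 intestinal markers was at 0. Whether these sums hold an intestinal signal apart from the liver one was not tested. Mogat2 is an intestinal enzyme, and without the 3 liver libraries its log2 difference was 4.46 in mCK-hLPL (adjusted p = 0.00529) and 3.49 in WT muscle (adjusted p = 0.033). Agpat2 without them had 2.16 (adjusted p = 0.00194) in mCK-hLPL and 1.5 (adjusted p = 0.0194) in WT muscle. Without the 3 lymph node libraries Mogat2 had 4.05 (adjusted p = 0.00615) in mCK-hLPL and 4.9 (adjusted p = 0.0191) in WT muscle, and Agpat2 had 2.15 (adjusted p = 0.00253) in mCK-hLPL and 2.04 (adjusted p = 0.0143) in WT muscle. The sum of 6 erythroid markers ran from 1770 to 11700 CPM in mCK-hLPL REL and from 870 to 3110 in mCK-hLPL WLM, and from 1020 to 4480 in WT REL and from 497 to 1690 in WT WLM. The sum of 10 muscle fibre markers ran from 118000 to 167000 CPM in mCK-hLPL REL (median 130000) and from 145000 to 170000 in mCK-hLPL WLM (median 164000), and from 115000 to 160000 in WT REL (median 146000) and from 147000 to 179000 in WT WLM (median 157000). Of those 10, 2 fell on refeeding in mCK-hLPL muscle, where 687 of all 17028 genes fell, and 0 in WT muscle, where 383 fell. In WT muscle 2 of the 10 had an unadjusted p under 0.05, as did 3513 of all genes. Averaged over genotypes 3 of the 10 fell, where 1700 of all genes fell. The part of blood and fibre content in the members' differences was not tested.

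Across the 19 libraries Mogat1, Mogat2, Agpat2, Dgat1 and Dgat2 varied together, while the other members followed them less, ran opposite to them or were unrelated. The Pearson r of log2 CPM was 0.929 between Mogat2 and Agpat2, 0.882 between Mogat1 and Agpat2, 0.882 between Dgat1 and Dgat2 and 0.879 between Dgat2 and Agpat2. With Dgat1, Lpin2 had an r of 0.672, Gpam of -0.526, Agpat1 of -0.592 and Agpat3 of -0.636. Lpin1 had an r of at most 0.171 in size with any other member. The tested gene most like Agpat2 was Pgd (0.99), which encodes a dehydrogenase of the pentose phosphate pathway, followed by the melanocortin receptor accessory protein gene Mrap (0.983) and Adap1 (0.983). Dgat2 was most like Cebpa (0.964), a transcription factor of fat cells, Plin1 (0.959), which coats their lipid droplets, and Fgf10 (0.958). Mogat2 was most like Ptger3 (0.958), Olfm1 (0.954) and Tuba1a (0.944), Mogat1 most like Eno1b (0.926), Mrap (0.916) and Orm1 (0.906), and Dgat1 most like Ywhab (0.95), Rbp4 (0.946) and Slc25a17 (0.939). The members that did not rise had other partners: Slk (0.875), Pdzrn3 (0.853) and Crim1 (0.851) for Gpam, Rnf123 (0.881), Dennd4b (0.874) and Ube3b (0.868) for Agpat1, and Rnf10 (0.888), Clic5 (0.875) and Mpp6 (0.874) for Agpat3. Lpin1 was most like Klf13 (0.883), Sec24a (0.881) and Wbp1l (0.874), and Lpin2 most like Trim14 (0.855), Dock5 (0.841) and Cryzl2 (0.808). All these values hold the refeeding difference and the fat cell content in common and carry no test.

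On the genome, Dgat2 and Mogat2 are neighbours on chromosome 7, both on the minus strand, 36364 bases apart with 0 annotated genes between them in GENCODE M21 on GRCm38. The other members lie on separate chromosomes except Agpat1, at chr17:34604262-34613449, and Lpin2, at chr17:71182560-71249817, which share chromosome 17. Agpat3 lies at chr10:78269178-78352489 and Lpin1 at chr12:16535669-16610966. The members' transcripts held 0 stretches of 31 bases in common with each other. Overlap with a gene on the opposite strand was present for Mogat1 (BC035947), Mogat2 (Gm45012), Gpam, Agpat1 (Egfl8), Agpat2 (Egfl7) and Agpat3, and the strand setting of the counting is not given in the sources used here, so reads from stretches that such pairs share cannot be told apart. Mogat1 shared 5.59% of its stretches of 31 bases with any other gene, the highest of the 10, Agpat1 1.24%, Agpat2 0.779% and Mogat2 0.693%, and Gpam and Agpat3 shared 0. BC035947 had 49 counts in mCK-hLPL REL and 28 in mCK-hLPL WLM, and 25 in WT REL and 24 in WT WLM, below the Mogat1 counts of 146 in mCK-hLPL REL, 54 in mCK-hLPL WLM, 90 in WT REL and 50 in WT WLM. Egfl7 averaged 27.5 CPM in mCK-hLPL REL and 25.1 in mCK-hLPL WLM, and 23.9 CPM in WT REL and 28 in WT WLM, and was not called on refeeding in either genotype.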

How the data were processed

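Gene counts were deposited by the authors as whole numbers per gene symbol, not normalized, for 19 gastrocnemius libraries made with a NuGEN mRNA kit. Per the submitters' processing notes, Salmon 0.14.2 and DESeq2 1.28.1 were used with the builds mm10 and GRCm38; their roles, the annotation and the strand setting are each not given in the sources used here. Of the symbols, 24 had become dates, with 0.0628% of counts, and 19516 rows had no count. Genes were kept with filterByExpr (minimum count 10, minimum total 15) and scaled by TMM factors of 0.88 to 1.166. They were tested in 1 fit of the 4 group means with edgeR 4.0.16 in R 4.3.3, checked on simulated data, two-sided, with Benjamini-Hochberg adjustment within each contrast and a threshold of 0.05. Each SE is the log2 difference over the root of its F statistic. Alternatives used limma 3.58.1 and DESeq2 1.42.0, other filters, scalings and libraries. Positions came from GENCODE M21, which matched 52503 of the symbols. Libraries with the same number deviated from their group means with a median correlation of 0.04 (range -0.35 to 0.22, 21 pairs). Those with different numbers had a median of -0.02 (84 pairs). The numbers gave no clear sign of a pairing, but so few pairs cannot exclude one. No 2 libraries of a group agreed within sampling noise. The members and gene lists were chosen with earlier results of these data known. Named genes were the members, genes of 2 pathway lists past the threshold, 4 reference genes, and the 3 genes most correlated with each member.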

Additional observations from a re-analysis of the deposited data

Results flagged for a closer look

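Among 40 sets of one gene in one group, 3 had a library far from the rest, where chance gives about 1 in 20. Gpam had 198 CPM in mCK-hLPL WLM 5, against 152 CPM in the nearest library of that group, and 175 CPM in WT WLM 4, against 141 CPM in the nearest. Lpin1 had 136 CPM in WT WLM 2, against 217 CPM in the nearest library of its group. None of these genes passed a test in any comparison.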

How the results depend on the processing

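Refeeding in mCK-hLPL muscle kept Agpat2 and Mogat2 past the threshold under every alternative that tested them, while Mogat1 and Dgat2 were lost under some. Dgat1 was gained with DESeq2 (adjusted p = 0.031), library totals (0.0122) and the fat cell score (0.0255), and Lpin2 with library totals (0.4, adjusted p = 0.0465, and 0.3 averaged, adjusted p = 0.0294). Of its 4 member calls, 2 were left with no low-count filter, with a CPM above 1 in 4 libraries, in a fit of only the compared groups, with a replicate block, when a log2 change above 0.5 was required and without the 3 lymph node libraries, and 2 to 5 when each library was left out. In WT muscle 2 calls became 1 with a CPM above 1, 1 in a fit of only the compared groups, 0 when a change above 0.5 was required and 4 with the fat cell score. The filter dropped Mogat2 both with a CPM above 1 and in the fit of only the compared WT groups, so it was not tested there. The replicate block gave 0, with an Agpat2 difference of 1.48 (adjusted p = 0.207) and a Mogat2 difference of 2.64 (adjusted p = 0.31). It leaves out WT REL A and B, and the same 17 libraries without the block gave 1 call, Mogat2 being at 3.05 (adjusted p = 0.0928). Averaged over genotypes, 5 calls became 3 with a CPM above 1, 2 with the block, 2 when that change was required and 3 in the numbered libraries, and 4 to 5 leaving out each library. All genes called with the block were 484 in mCK-hLPL and 32 in WT muscle, against 1169 in mCK-hLPL and 166 in WT muscle in the same libraries without it. The fits without the lymph node or liver libraries and in the numbered libraries were chosen after seeing the data. Same-numbered libraries showed no clear joint deviation, which does not settle whether the block stands for a pairing. With library totals alone, 96.4% of calls in mCK-hLPL and 89.5% in WT muscle were higher, against 50.5% in mCK-hLPL and 53.9% in WT muscle with TMM.

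Some uncalled differences changed sign. With library totals, Gpam had 0.13 in mCK-hLPL, 0.04 in WT and 0.08 averaged, and in the same sequence Agpat1 had 0.11, 0.08 and 0.09, Agpat3 0.05, 0.07 and 0.06, and Lpin1 0.11, 0.03 and 0.07. In WT muscle Agpat1 had 0.08 with the block and in the numbered libraries and 0.02 without the liver libraries, Lpin2 had -0.03 with the block, and Lpin1 had 0.03 without the lymph node libraries. In mCK-hLPL muscle Gpam had 0.05 without the liver libraries. In the interaction, Mogat1 had -0.04 with voom, -0.14 with the fat cell score and -0.21 without the lymph node libraries, Mogat2, at 0.59 in all libraries, had -0.85 without those, Dgat2 -0.03 and Agpat2 0 with the fat cell score. Leaving out each library, Agpat1 ran from -0.14 to 0.02 and Lpin2 from -0.01 to 0.11 in WT muscle, Gpam from -0.18 to 0.02 and Lpin1 from -0.2 to 0 in mCK-hLPL muscle, and the interaction from -0.05 to 0.36 for Mogat1, -0.07 to 1.37 for Mogat2 and -0.02 to 0.42 for Dgat2. The cause was not tested. With the longest transcript in place of merged exons, 8 of 10 members kept their rank, Gpam and Lpin1 trading places.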
